A study of Homo sapiens with 8 samples.

Results

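The HOX cluster genes encode homeodomain transcription factors and lie in 4 clusters, HOXA on chromosome 7, HOXB on chromosome 17, HOXC on chromosome 12 and HOXD on chromosome 2. They were taken as the rows of both deposited tables that named 1 symbol, HOXA to HOXD followed by a number. This gave 22 genes of 41852 gene rows in the MCF10A table and 41884 in the table of the second line, with 6 genes in HOXA, 7 in HOXB, 4 in HOXC and 5 in HOXD. A further 17 HOX symbols stood in 6 rows that joined several genes, so that the tables named 39 HOX genes in all, and the joined rows are described apart.

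Total RNA was sequenced from MCF10A cells, an immortalized line of human breast epithelium that forms no tumours, and from MCF10A that overexpressed the intracellular domain of NOTCH1 per the labels. Each line received either ginkgolic acid at 30 µM, which blocks the attachment of SUMO to proteins, or DMSO for 3 days. All 4 groups had 2 samples each and the same medium with horse serum, insulin, cholera toxin, epidermal growth factor and hydrocortisone. The tables held 1 FPKM value (fragments scaled to transcript length and to the number mapped) per gene and group, which leaves no replicate error and no test for any difference, and an unknown depth.

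NOTCH1, on chromosome 9, was at 5.03 FPKM under DMSO in the second line and at 11.4 FPKM in MCF10A. Under ginkgolic acid the order was the reverse, 12.4 FPKM in the second line and 6.18 in MCF10A. Without the inhibitor the level thus went against the label, so the second line is called NOTCH1-labelled, and its values come from a table that was normalized separately. This row has 1 value for NOTCH1 as a whole, whichever domain the fragments came from. Markers of basal mammary epithelium were present, with 7 of 7 found rows at 1 FPKM or more in MCF10A and 9 of 9 in the NOTCH1-labelled line. Markers of luminal hormone receptor cells summed to 4.89 to 10.1 FPKM in the 4 groups, endothelial markers to 2.75 to 10.7 and immune markers to 3.43 to 8.65. Fibroblast and mesenchymal markers summed to 98.3 FPKM under ginkgolic acid and 59.6 under DMSO in MCF10A, and to 112 and 105 FPKM in the NOTCH1-labelled line. TWIST1 alone gave 71.2 and 26.5 FPKM of the sums in MCF10A and 65.7 and 27.5 in the NOTCH1-labelled line. The other 8 of these markers summed to 27.05 and 33.1 FPKM in MCF10A and to 46.4 and 77.6 in the NOTCH1-labelled line. These sums were lower under ginkgolic acid in both lines, but only through DCN. DCN alone gave 9.11 and 18.045 FPKM of them in MCF10A and 31.8 and 63.4 in the NOTCH1-labelled line. Its difference was larger than that of the sums in both lines, so the sums without DCN were not lower. Basal markers summed to 365 and 593 FPKM in MCF10A, with 4 of 7 2-fold or more lower under ginkgolic acid, where 15.2% of all genes were. A joined row of KRT5 and KRT6A, outside this sum, was at 904 and 3202 FPKM in MCF10A. In the NOTCH1-labelled line basal markers summed to 1462 and 1683 FPKM, with 1 of 9 2-fold or more higher and 0 lower. General epithelial markers summed to 1999 and 1937 FPKM in MCF10A, with 2 of 6 2-fold or more higher and 1 lower. In the NOTCH1-labelled line they summed to 2471 and 1272 FPKM, with 3 of 6 higher and 1 lower. Of all genes, 24.4% were higher and 15.2% lower in MCF10A, and 18.9% and 18.9% in the NOTCH1-labelled line. The part of these differences in the HOX values was not tested. In RNA from whole cultures, fewer cells of a type and less RNA per cell cannot be told apart.

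HOX proteins bind DNA through the homeodomain, often together with PBX and MEIS cofactors, and set position along the body axis in the embryo. Genes at the low-numbered end of a cluster act in anterior regions and those at the high-numbered end in posterior regions. In adult cells the clusters stay partly active, and Polycomb and Trithorax complexes keep their genes silent or active. HOXA5 is known in mammary epithelium as a regulator of epithelial differentiation, and HOXB7 is studied in breast cancer cells.

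The homeobox is the stretch that makes the HOX genes alike, and reads from it could be assigned to the wrong gene. It is shown for HOXA5 and HOXB7, the HOX genes with the largest ratios among those measured in MCF10A. The sequences are those of GENCODE release 29 transcripts, 180 bases each, and capitals mark the 6 codons of the tryptophan-to-arginine core of the DNA-recognition helix.
HOXA5: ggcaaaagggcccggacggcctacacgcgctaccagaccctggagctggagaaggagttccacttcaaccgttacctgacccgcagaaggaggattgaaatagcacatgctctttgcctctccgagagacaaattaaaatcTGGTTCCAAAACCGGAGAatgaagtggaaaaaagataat
HOXB7: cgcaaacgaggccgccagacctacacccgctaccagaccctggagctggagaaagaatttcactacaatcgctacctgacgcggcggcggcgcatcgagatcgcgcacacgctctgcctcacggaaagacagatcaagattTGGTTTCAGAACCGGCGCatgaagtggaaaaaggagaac
HOXA5 and HOXB7, of different paralog groups, shared 136 of the 180 bases. Over the 42 pairs of one paralog group the median identity was 81.7%, from 69.4% to 90.6%, and over the other 699 pairs it was 60.6%, from 47.8% to 91.1%. The longest identical run between a transcript of one of the 22 genes and one of a HOX gene in another cluster was 17 to 40 bases. It was 34 bases for HOXA5, with HOXB8, and 26 bases for HOXB7, with HOXA5. The read length is not given in the sources used here, so how far reads could move between these genes was not determined.

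Most of the 22 HOX genes with a row of their own lay near the detection limit. The joined rows, of which the highest was at 28.1 FPKM under DMSO in MCF10A, are not counted here. A level of 1 FPKM in either group of a table counted as measured, and 8 of 22 genes reached it in MCF10A and 8 in the NOTCH1-labelled line, with 7 in both and 13 in neither. Just above this level was HOXC11, at 1.06 FPKM under ginkgolic acid in MCF10A, and just below it HOXD8, at 0.810 FPKM in the same group. Olfactory receptor genes, which few cells outside the nose express, gave a scale for such values. The 95th percentile of these genes was 1.26 FPKM under ginkgolic acid and 0.896 under DMSO in MCF10A (383 genes), and 1.10 and 1.55 FPKM in the NOTCH1-labelled line (384 genes). Only 5 of the 22 HOX genes lay above it in all 4 groups, HOXA2, HOXA5, HOXB2 and HOXB7 among them. Another 14 lay above it in none.

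**Figure D1:**
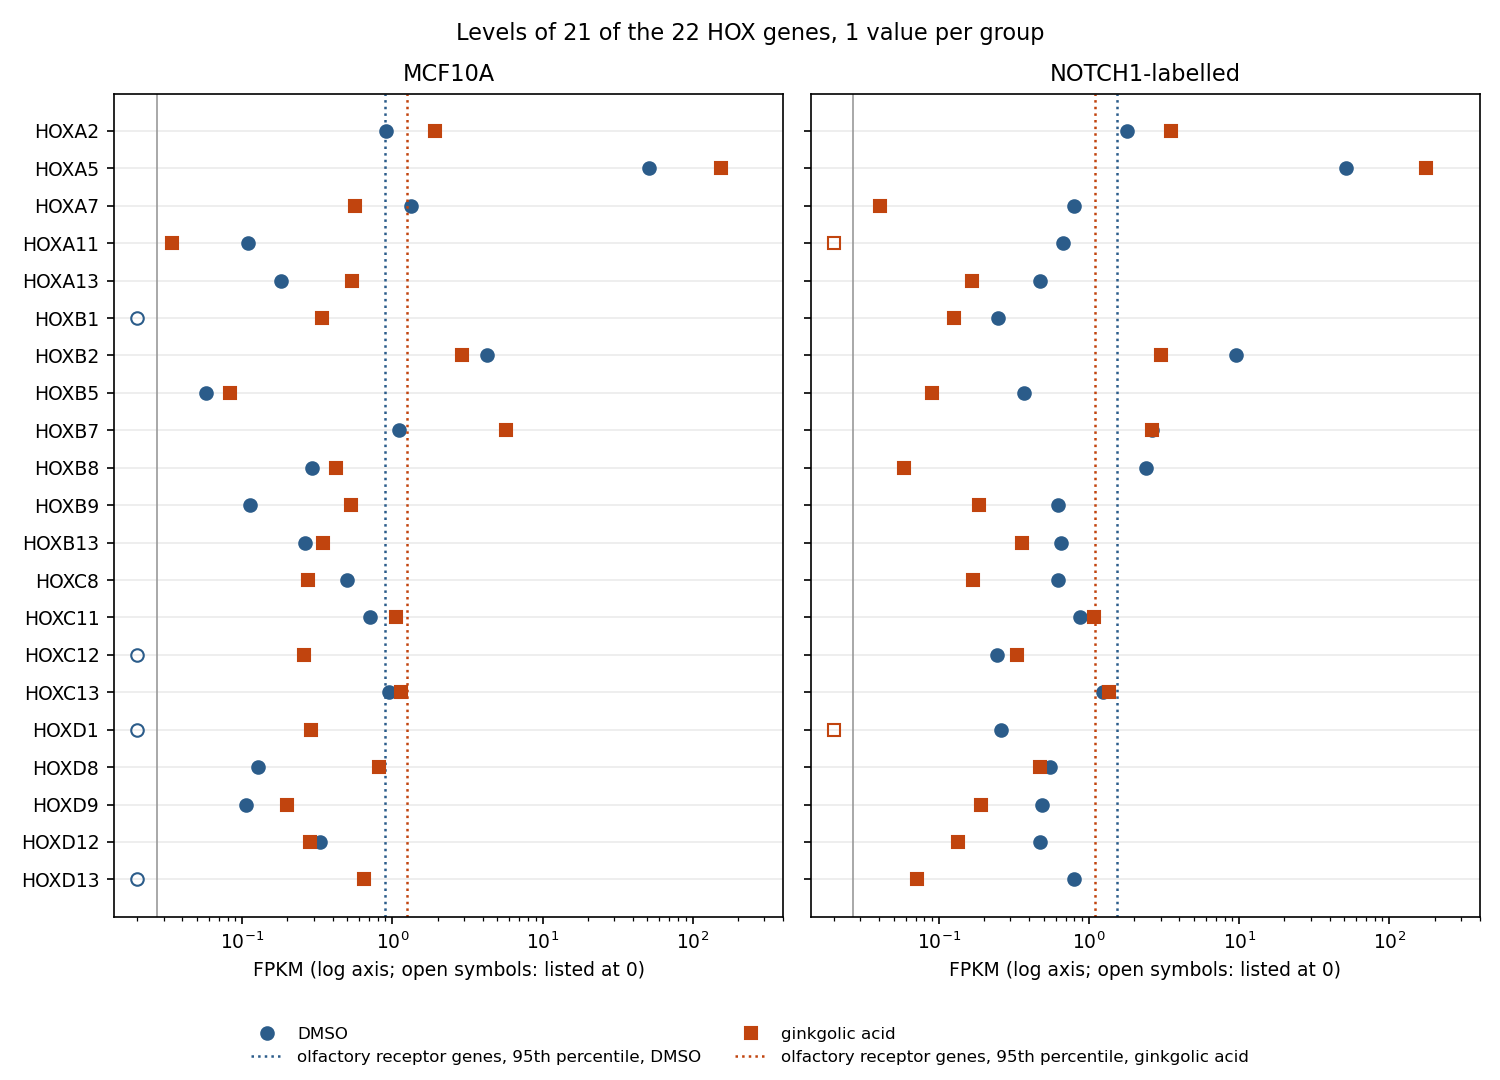
FPKM (log axis) of 21 of the 22 HOX genes under DMSO (circles) and ginkgolic acid (squares) in each line, with the 95th percentile of olfactory receptor genes as dotted lines and values listed at 0 as open symbols left of the grey line. HOXA5 stands far to the right of all others, at 51.0 to 175 FPKM, and in the NOTCH1-labelled line the 2 symbols of HOXB7 overlap.

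HOXA5 had by far the highest value of the 22 genes. It was at 153 FPKM under ginkgolic acid and 51.0 under DMSO in MCF10A, and at 175 and 51.1 in the NOTCH1-labelled line. The values under ginkgolic acid were 3.01-fold and 3.43-fold higher, with log2 ratios of 1.59 and 1.78. HOXA5 made up 88.3% of the summed FPKM of the 22 genes under ginkgolic acid and 80.2% under DMSO in MCF10A, and 90.8% and 65.0% in the NOTCH1-labelled line. These shares leave out the 17 HOX genes of the joined rows. With those rows added, the share of HOXA5 was 66.4% under ginkgolic acid and 43.5% under DMSO in MCF10A, and 74.1% and 41.0% in the NOTCH1-labelled line. The sum of the other 21 genes was 20.4 FPKM under ginkgolic acid and 12.6 under DMSO in MCF10A, and 17.8 and 27.6 FPKM in the NOTCH1-labelled line. So without HOXA5 the sum of these genes was higher under ginkgolic acid in MCF10A and lower in the NOTCH1-labelled line.

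The row of HOXA5 had the locus from 27145815 to 27197555 on chromosome 7 (hg19), which it shared with HOXA7 and with the joined row of HOXA3, HOXA4 and HOXA6. In GENCODE release 29 HOXA5 overlaps HOXA3 and AC004080.6 on its own strand and HOXA-AS3 on the other strand, and holds no small RNA. Whether the authors' counting used strand is not given in the sources used here, so reads of overlapping genes could not be separated. HOXA-AS3, an antisense transcript, was at 1.72 and 0.484 FPKM in MCF10A and at 1.62 and 0.848 in the NOTCH1-labelled line. The joined row of HOXA3, HOXA4 and HOXA6 was at 5.06 to 8.0 FPKM, and both of these rows were far below HOXA5. AC004080.6 was not analysed here. Of the 22 genes, 13 overlap an annotated transcript on the other strand and 6 another gene on their own strand.

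At the anterior end of HOXA, HOXA2 was also higher under ginkgolic acid in both lines. HOXA2, which patterns the hindbrain and the second branchial arch, was at 1.92 and 0.910 FPKM in MCF10A and at 3.49 and 1.80 in the NOTCH1-labelled line. Its log2 ratios were 1.08 in MCF10A and 0.96 in the NOTCH1-labelled line, on either side of the 2-fold mark. Olfactory receptor genes with a ratio had medians of 1.08 in MCF10A and −0.37 in the NOTCH1-labelled line. In MCF10A HOXA2 thus differed about as much as these mostly silent genes. The DMSO value of HOXA2 there was just above their 95th percentile of 0.896 FPKM. The locus of its row (chromosome 7, 27132611 to 27142430) also holds HOTAIRM1, a noncoding RNA. HOTAIRM1 was at 94.1 FPKM under ginkgolic acid and 48.8 under DMSO in MCF10A, and at 142 and 50.5 in the NOTCH1-labelled line, with log2 ratios of 0.95 and 1.49. Its level was over that of HOXA2 in every group and close to that of HOXA5 under DMSO.

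HOXA7, at the centre of the cluster, was lower under ginkgolic acid, unlike HOXA5. It was at 0.564 FPKM under ginkgolic acid and 1.34 under DMSO in MCF10A, a log2 ratio of −1.25. The first value was below the 95th percentile of olfactory receptor genes in its group, 1.26 FPKM. The DMSO value was above their 95th percentile of 0.896 FPKM but below their highest value, 1.64. In the NOTCH1-labelled line HOXA7 was at 0.0408 and 0.796 FPKM, under 1 FPKM in both groups. At the posterior end, HOXA11, a gene of limb and uterine development, was at 0.0340 and 0.109 FPKM in MCF10A and listed at 0 under ginkgolic acid and at 0.671 under DMSO in the NOTCH1-labelled line. HOXA13, a gene of digit and genital tract development, was at 0.536 and 0.182 FPKM in MCF10A and at 0.167 and 0.468 in the NOTCH1-labelled line. The joined row of HOXA9 and HOXA10, which act in haematopoietic and uterine cells, was at 26.8 and 13.7 FPKM in MCF10A and at 16.9 and 8.98 in the NOTCH1-labelled line, with log2 ratios of 0.96 and 0.91. Within HOXA, therefore, HOXA2, HOXA5 and the joined row of HOXA9 and HOXA10 had higher values under ginkgolic acid in both lines, and the joined row of HOXA3, HOXA4 and HOXA6 had log2 ratios of 0.34 and −0.02.

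**Figure D2:**
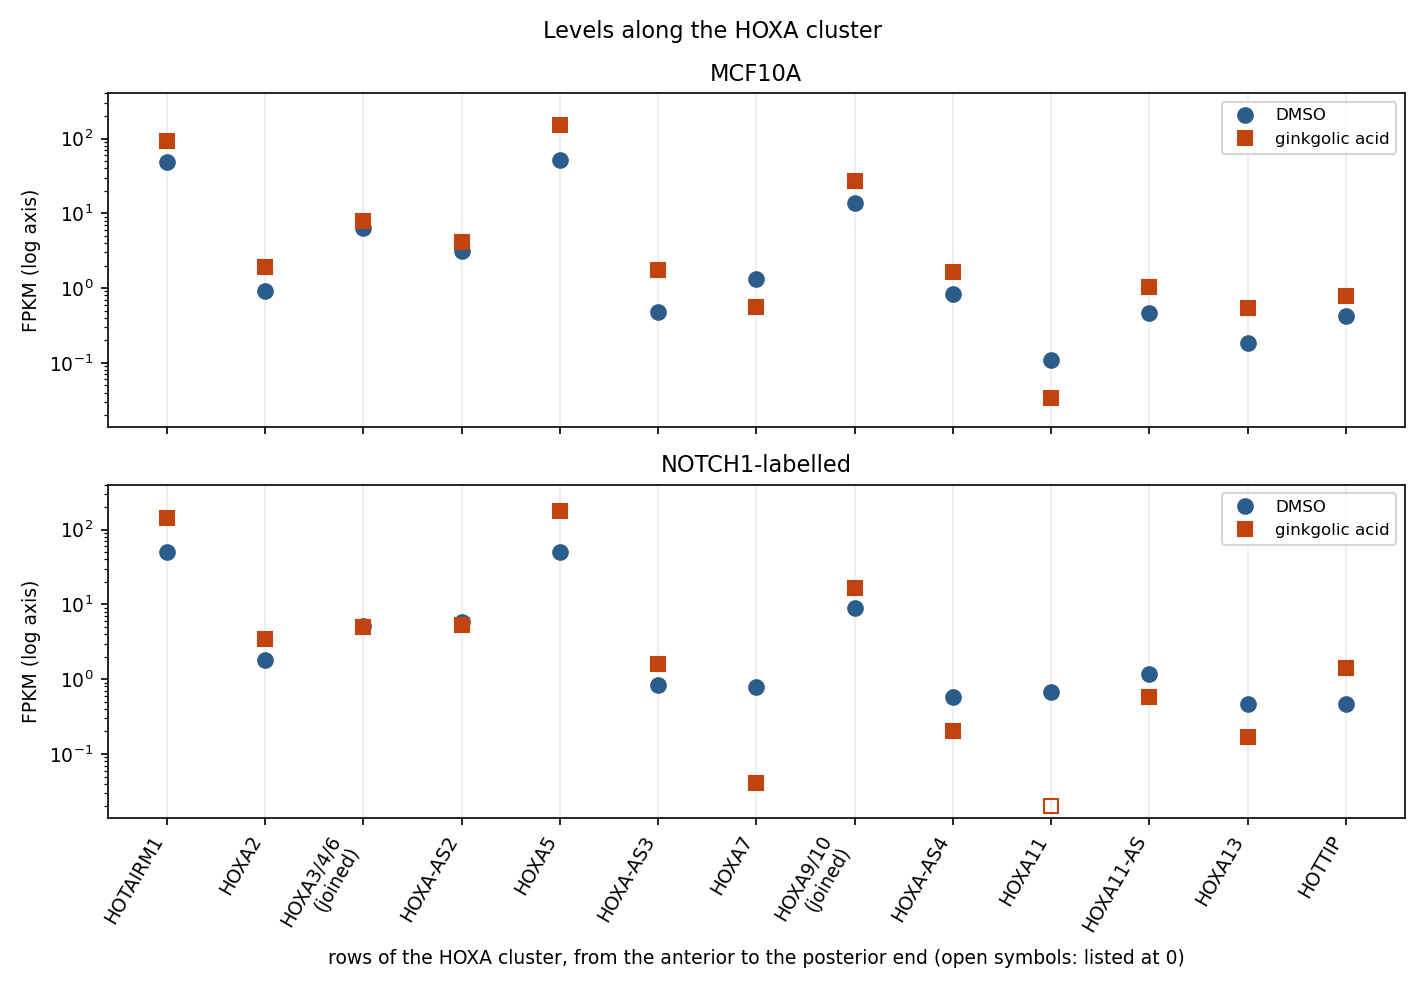
FPKM (log axis) of the rows of the HOXA cluster under DMSO (circles) and ginkgolic acid (squares), ordered from the anterior to the posterior end, with antisense and joined rows included and values listed at 0 as open symbols. HOTAIRM1, HOXA5 and the joined row of HOXA9 and HOXA10 carry the high values, and HOXA7 and HOXA11 have lower values under ginkgolic acid in both lines.

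Of the 22 genes, 9 have a promoter window in the RefSeq table used (GRCh38.p14, 250 bases before to 50 after a start). They include HOXA2 and HOXA7, whose ratios had opposite signs, that of HOXA7 near the detection limit. These 2 windows are shown on the minus strand of the genome. Capitals mark TGATNNAT, the letters of a HOX-PBX site, TAATTA, the letters of a homeodomain site, and CCAAT, on either strand.
HOXA2 (chr7:27102634-27102933): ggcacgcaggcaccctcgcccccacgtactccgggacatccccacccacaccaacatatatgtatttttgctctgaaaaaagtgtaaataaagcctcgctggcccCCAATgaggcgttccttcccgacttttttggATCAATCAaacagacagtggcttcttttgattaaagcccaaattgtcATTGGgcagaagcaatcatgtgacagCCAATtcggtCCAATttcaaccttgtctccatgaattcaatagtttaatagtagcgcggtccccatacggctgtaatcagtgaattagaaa
HOXA7 (chr7:27156626-27156925): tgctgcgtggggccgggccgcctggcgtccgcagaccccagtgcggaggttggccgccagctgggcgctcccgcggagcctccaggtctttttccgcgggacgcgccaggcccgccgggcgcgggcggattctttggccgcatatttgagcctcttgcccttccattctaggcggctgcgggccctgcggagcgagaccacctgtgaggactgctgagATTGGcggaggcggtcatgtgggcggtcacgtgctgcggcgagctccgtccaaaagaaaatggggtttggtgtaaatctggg
The window of HOXA2 held 1 match to TGATNNAT and 4 to CCAAT, with 46.3% G and C and 11 CpG. The window of HOXA7 held 1 match to CCAAT and none of TGATNNAT, with 68.0% G and C and 31 CpG. Among all 35116 promoter windows of the table, 7.4% held TGATNNAT, 4.84% TAATTA and 34.6% CCAAT, and the median was 58.7% G and C and 14 CpG. Of the 9 HOX windows, 2 held TGATNNAT (HOXA2 and HOXB1), 0 held TAATTA and 7 held CCAAT. A match is a stretch of letters and shows no binding, and any part of these windows in the ratios was not tested.

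In the HOXB cluster the 2 lines differed. HOXB2, a gene of hindbrain patterning (locus on chromosome 17, 46618255 to 46683776), was at 2.90 FPKM under ginkgolic acid and 4.24 under DMSO in MCF10A, and at 3.01 and 9.53 in the NOTCH1-labelled line. Its log2 ratios were −0.55 and −1.66, lower under ginkgolic acid in both lines. HOXB7, in the locus from 46684593 to 46724385, was at 5.69 and 1.11 FPKM in MCF10A, a log2 ratio of 2.36, and at 2.64 and 2.63 in the NOTCH1-labelled line, a log2 ratio of 0.01. It had the largest ratio of the measured HOX genes in MCF10A and nearly none in the NOTCH1-labelled line. HOXB7 overlaps HOXB8 and HOXB9 on its own strand in GENCODE release 29 and holds the miRNA gene MIR196A1, whose own row was listed at 0 in all 4 groups. HOXB-AS4, which overlaps it on the other strand, was at 1.92 FPKM under ginkgolic acid and listed at 0 under DMSO in MCF10A, and at 0.420 and 0.248 in the NOTCH1-labelled line. It was thus higher in MCF10A where HOXB7 was, and its part in the value of HOXB7 was not tested.

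HOXB8, known from haematopoietic progenitors, was at 0.420 FPKM under ginkgolic acid and 0.292 under DMSO in MCF10A. In the NOTCH1-labelled line it was at 0.0586 and 2.39 FPKM, a log2 ratio of −5.35 that rests on a value near 0. HOXB9 was at 0.531 and 0.113 FPKM in MCF10A and at 0.186 and 0.625 in the NOTCH1-labelled line. HOXB1, HOXB5 and HOXB13, the last of these a marker of prostate epithelium, lay between 0 and 0.648 FPKM in all groups, with HOXB1 listed at 0 under DMSO in MCF10A. The joined row of HOXB3, HOXB4 and HOXB6 was at 5.10 and 4.79 FPKM in MCF10A and at 3.58 and 7.36 in the NOTCH1-labelled line. Its log2 ratios were 0.09 and −1.04, so that it passed the 2-fold mark in the NOTCH1-labelled line, as HOXB2 did.

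The HOXC cluster was represented mainly by its joined row. HOXC4, HOXC5, HOXC6, HOXC9 and HOXC10 shared a row at 15.6 FPKM under ginkgolic acid and 28.1 under DMSO in MCF10A, and at 16.2 and 22.1 in the NOTCH1-labelled line, with log2 ratios of −0.85 and −0.45. It was the highest HOX row after HOXA5 in the DMSO groups. HOXC13, a regulator of hair and nail keratins, was at 1.14 and 0.950 FPKM in MCF10A and at 1.35 and 1.25 in the NOTCH1-labelled line. HOXC11 was at 1.06 and 0.706 FPKM in MCF10A and at 1.07 and 0.876 in the NOTCH1-labelled line. Both had ratios under 2-fold, at levels that olfactory receptor genes also reach. HOXC8 and HOXC12 lay between 0 and 0.625 FPKM.

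None of the 5 HOXD genes with a row of their own reached 1 FPKM in any group. HOXD8 had the highest value of these genes, 0.810 FPKM under ginkgolic acid in MCF10A against 0.127 under DMSO. In the NOTCH1-labelled line HOXD8 was at 0.472 and 0.551. HOXD13, a gene of digit development, was at 0.649 FPKM under ginkgolic acid and listed at 0 under DMSO in MCF10A, and at 0.0711 and 0.793 in the NOTCH1-labelled line. HOXD1, HOXD9 and HOXD12 lay between 0 and 0.485 FPKM. The joined row of HOXD10 and HOXD11 was at 0.835 and 0.217 FPKM in MCF10A and at 1.13 and 1.56 in the NOTCH1-labelled line, and that of HOXD3 and HOXD4 stayed under 1 FPKM in all groups.

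Among the measured genes, 3 of 8 HOX genes were 2-fold or more higher under ginkgolic acid in MCF10A (HOXA2, HOXA5 and HOXB7) and 1 of 8 2-fold or more lower (HOXA7). Over all 17646 such genes with a ratio, 24.4% were 2-fold or more higher and 15.2% 2-fold or more lower. In the NOTCH1-labelled line 2 of 8 HOX genes were 2-fold or more higher (HOXA5 among them) and 2 of 8 2-fold or more lower (HOXB2 and HOXB8), against 18.9% and 18.9% of 19507 genes. With 8 genes a line, nothing particular to the HOX genes is read from these shares. The median log2 ratio was 0.66 in MCF10A, where that of all genes was 0.07, and 0.21 in the NOTCH1-labelled line, where it was 0.06. Without a minimum FPKM the second median was −1.16. In that line 10 of the 20 HOX genes with a ratio were then 2-fold or more lower, 8 of them under 1 FPKM in both groups. At any level 23.2% of 29004 genes were that much lower.

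By cluster, the median log2 ratio of the measured genes in MCF10A was 0.90 for HOXA (4 genes), 0.91 for HOXB (2 genes) and 0.42 for HOXC (2 genes). In the NOTCH1-labelled line it was 1.07 for HOXA (3 genes), −1.66 for HOXB (3 genes) and 0.21 for HOXC (2 genes). Among the clusters with measured genes, HOXB was thus the one whose median had opposite signs in the 2 lines. In MCF10A, however, its 2 genes had ratios of opposite sign, and with the joined rows added its median there was 0.09. Without a minimum FPKM the HOXD median also had opposite signs, at 0.91 in MCF10A and −1.59 in the NOTCH1-labelled line. HOXA held 91.2% of the summed FPKM of the 22 genes under ginkgolic acid and 86.2% under DMSO in MCF10A, and 94.7% and 72.0% in the NOTCH1-labelled line. HOXB held 9.55% under DMSO in MCF10A and 20.9% in the NOTCH1-labelled line. The joined rows changed these shares. With them HOXA held 83.7% under ginkgolic acid and 63.8% under DMSO in MCF10A, and 86.5% and 56.8% in the NOTCH1-labelled line. HOXC, at 3.39% and 3.80% under DMSO in the 2 lines without them, held 25.8% and 20.1% with them.

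The genes that reached 1 FPKM under both agents had a median log2 ratio of −0.11 in MCF10A and 0.14 in the NOTCH1-labelled line. Relative to it, HOXB7 and HOXC13 turned to −0.13 and −0.02 in that line. HOXA5, at 1.69 and 1.64, was more than 2-fold higher in both lines on this scale too. Over the 15492 genes with 1 FPKM in either group of each line, 5.16% were 2-fold or more higher under ginkgolic acid in both, and of the 7 such HOX genes 1 was, HOXA5.

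The difference of the log2 ratios, NOTCH1-labelled minus MCF10A, was at most −1 for 2 of the 7 genes measured in both lines, HOXB7 at −2.35 and HOXB2 at −1.11, and at least 1 for 0 of 7. Over all genes 22.5% were at most −1 and 21.6% at least 1. HOXA2, HOXA5, HOXC11 and HOXC13 differed by −0.29 to 0.19. The median was −0.14, where that of all genes was 0.22. Among the 17 HOX genes with a ratio in both lines, whatever their level, 15 had the lower ratio in the NOTCH1-labelled line, as did 54.3% of the 24558 genes with both ratios. Of these 15, 10 were under 1 FPKM in both groups of at least 1 line.

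**Figure D3:**
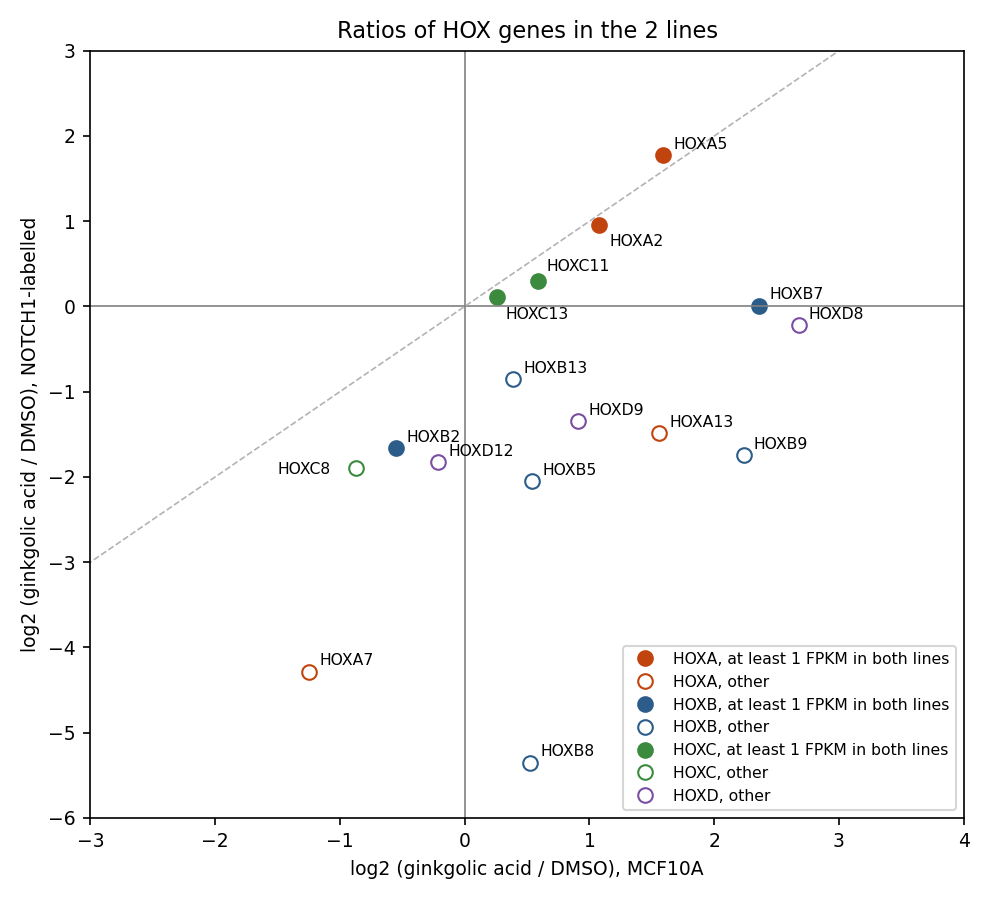
Log2 ratio of ginkgolic acid over DMSO in MCF10A (x axis) and the NOTCH1-labelled line (y axis) for HOX genes with a ratio in both, filled where the gene reached 1 FPKM in both lines, with the line of equal ratios dashed. HOXA2, HOXA5, HOXC11 and HOXC13 lie near the dashed line, HOXB2 and HOXB7 below it, and the open points are all below it.

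The HOX genes under 1 FPKM had mostly opposite directions in the 2 lines. In MCF10A, 11 of the 14 such genes had the higher value under ginkgolic acid, and 3 the lower one. Of 16429 genes under 1 FPKM and above 0 in at least 1 group, 76% were higher and 24% lower. Of 361 olfactory receptor genes above 0 in at least 1 group, 290 were higher. In the NOTCH1-labelled line, 13 of 14 had the lower value under ginkgolic acid, and 1 the higher one. Of 14573 genes under 1 FPKM and above 0 in at least 1 group, 66.4% were lower and 33.6% higher. Of 359 olfactory receptor genes above 0 in at least 1 group, 244 were lower. The median of all olfactory receptor genes, those at 0 included, was 0.144 FPKM under DMSO and 0.494 under ginkgolic acid in MCF10A. In the NOTCH1-labelled line it was 0.486 and 0.233. The median of the 22 HOX genes was 0.277 FPKM under DMSO and 0.534 under ginkgolic acid in MCF10A, and 0.660 and 0.188 in the NOTCH1-labelled line. So the low HOX genes and genes that are mostly silent differed in the same direction in each line, and the part of this difference in the HOX values was not tested.

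**Figure D4:**
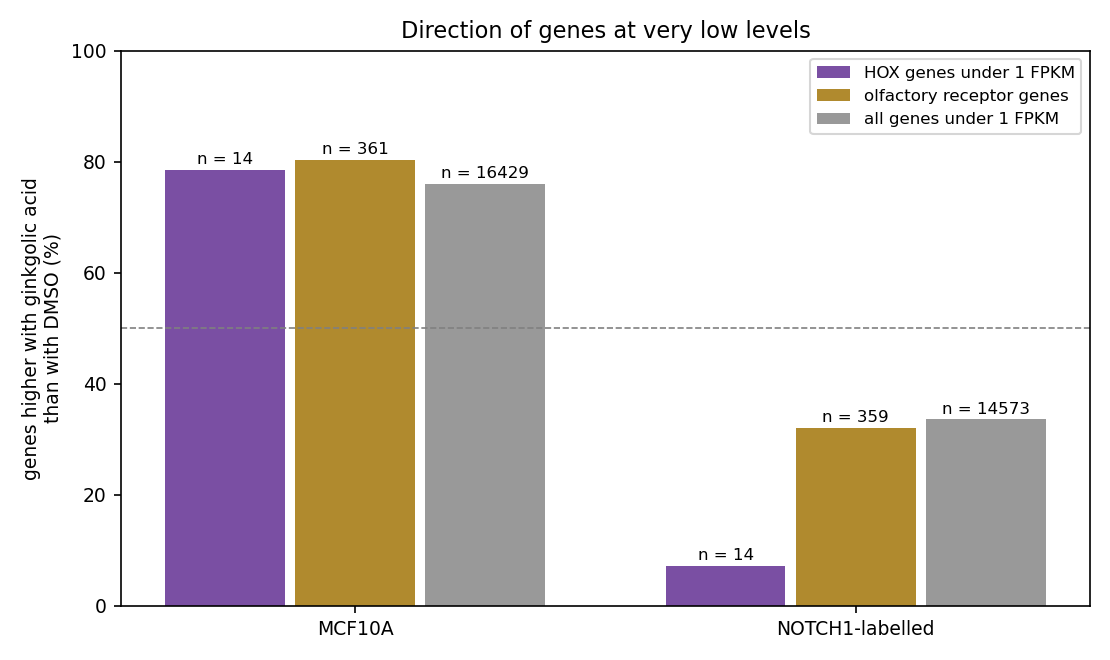
Percentage of genes with a higher FPKM under ginkgolic acid than under DMSO, with the number of genes over each bar. The sets are HOX genes under 1 FPKM in both groups, olfactory receptor genes, and all genes under 1 FPKM in both groups. The olfactory receptor genes and the set of all genes are limited to those above 0 in at least 1 group. All 3 bars are above 50% in MCF10A and below it in the NOTCH1-labelled line.

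Set side by side across the separately normalized tables, 21 of 22 HOX genes were higher under DMSO in the NOTCH1-labelled line than in MCF10A, with HOXA7 as the exception, and so were 67.7% of the 35886 genes above 0 in either table. With ginkgolic acid 9 were higher and 13 lower, where 51.6% of 36798 genes were lower. HOXA5 had a log2 ratio between the lines of 0.00 under DMSO and 0.19 under ginkgolic acid. HOXB2 had 1.17 and 0.06, and HOXB7 had 1.25 and −1.11. The olfactory receptor medians given above were also higher in the NOTCH1-labelled line under DMSO and lower under ginkgolic acid.

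Paralogs, which hold the same place in different clusters, differed in level or direction in groups 2, 5 and 7, among others. In group 5, HOXA5 was at 51.0 to 175 FPKM and HOXB5 at 0.0574 to 0.371. In group 7, HOXA7 and HOXB7 were at 1.34 and 1.11 FPKM under DMSO in MCF10A and at 0.564 and 5.69 under ginkgolic acid. In MCF10A the 2 genes were thus close in level without the inhibitor and far apart with it. HOXA7 was then below the 95th percentile of olfactory receptor genes, 1.26 FPKM. In the NOTCH1-labelled line they were apart under both agents, at 0.796 and 2.63 FPKM under DMSO and at 0.0408 and 2.64 under ginkgolic acid. In group 2, HOXA2 was higher and HOXB2 lower under ginkgolic acid in both lines, with HOXA2 in MCF10A at levels that olfactory receptor genes also reach. In group 13, HOXC13 was at 0.950 to 1.35 FPKM, above HOXA13, HOXB13 and HOXD13 in every group. In group 9, HOXB9 and HOXD9 were close in 2 of the 4 groups, at 0.113 and 0.106 FPKM under DMSO in MCF10A and at 0.186 and 0.191 under ginkgolic acid in the NOTCH1-labelled line.

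Noncoding RNAs of the clusters were found as rows for 15 of 20 listed names, and 8 of them reached 1 FPKM in each line. In MCF10A 3 of 8 were 2-fold or more higher and 2 lower, with a median log2 ratio of 0.79, and in the NOTCH1-labelled line 2 of 8 were higher and 2 lower, with a median of 0.20. Over all genes the shares were 24.4% and 15.2% in MCF10A and 18.9% and 18.9% in the NOTCH1-labelled line. HOTAIR, which is transcribed from HOXC and recruits chromatin modifiers, was at 2.81 and 1.82 FPKM in MCF10A and at 2.25 and 2.32 in the NOTCH1-labelled line. HOXC-AS5, beside HOXC13, was at 0.848 and 4.74 FPKM in MCF10A and at 0.494 and 1.79 in the NOTCH1-labelled line, lower under ginkgolic acid in both. HOXC-AS1 was at 0.186 and 2.47 FPKM in MCF10A and at 2.61 and 1.91 in the NOTCH1-labelled line. HOTTIP, at the HOXA13 end, was at 1.43 and 0.461 FPKM in the NOTCH1-labelled line and under 1 FPKM in MCF10A. HOXA11-AS was at 1.03 and 0.458 FPKM in MCF10A and at 0.586 and 1.18 in the NOTCH1-labelled line, which are opposite directions at levels that olfactory receptor genes reach.

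Cofactors of HOX proteins were found for 7 of 11 names, all at 1 FPKM or more, with 3 2-fold or more higher and 0 lower in MCF10A and 2 higher and 3 lower in the NOTCH1-labelled line. All genes gave 24.4% and 15.2% in MCF10A and 18.9% and 18.9% in the NOTCH1-labelled line. MEIS1 was at 8.26 FPKM under ginkgolic acid and 8.38 under DMSO in MCF10A and at 7.37 and 16.2 in the NOTCH1-labelled line. PBX3 was at 34.2 and 16.5 FPKM in MCF10A and at 62.8 and 15.6 in the NOTCH1-labelled line, and TGIF1, a related repressor, at 38.9 and 18.3 and at 114 and 17.3. PKNOX2 had log2 ratios of 1.12 and −2.72 in the 2 lines, and MEIS2 had −0.67 and −1.11. The values of PKNOX2 were 1.76 and 0.805 FPKM in MCF10A and 0.377 and 2.49 in the NOTCH1-labelled line, levels that olfactory receptor genes also reach.

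Polycomb genes, whose products silence HOX clusters, were found for 30 of 32 names, all measured, with 5 2-fold or more higher and 1 lower in MCF10A and 10 higher and 3 lower in the NOTCH1-labelled line. The shares over all genes were 24.4% and 15.2% in MCF10A and 18.9% and 18.9% in the NOTCH1-labelled line. The median log2 ratios were 0.22 and 0.52, where those of all genes were 0.07 and 0.06. EZH2, the catalytic subunit that methylates histone H3, was at 28.7 and 17.6 FPKM in MCF10A and at 30.0 and 12.6 in the NOTCH1-labelled line. Among the largest ratios were those of PHF1, PHF19 and PHC1, at 1.87, 1.62 and 1.60 in MCF10A and at 1.23, 2.34 and 1.09 in the NOTCH1-labelled line. YAF2 and PCGF3 had 0.04 and 0.16 in MCF10A and 1.78 and −1.60 in the NOTCH1-labelled line.

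Trithorax genes and H3K27 demethylases had 3 of 19 measured genes 2-fold or more higher and 2 lower in MCF10A, and 2 of 18 higher and 1 lower in the NOTCH1-labelled line, beside 24.4% and 15.2% of all genes in the first and 18.9% and 18.9% in the second. MLL (KMT2A), the methyltransferase that keeps HOX genes active, was at 26.1 and 5.13 FPKM in MCF10A and at 19.7 and 7.48 in the NOTCH1-labelled line, with log2 ratios of 2.35 and 1.40. KDM6A, a demethylase of the Polycomb mark, had 1.5 in MCF10A and 0.24 in the NOTCH1-labelled line, and KDM6B, of the same function, 0.24 and −2.79. WDR5 had −1.19 and −0.35, AFF1 had −0.01 and 2.22, and SETD1A, under 1 FPKM in the NOTCH1-labelled line, had −1.15 in MCF10A.

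Genes of retinoic acid signalling, which induces anterior HOX genes in the embryo, had 4 of 18 measured genes with a ratio 2-fold or more higher and 7 lower in MCF10A, and 4 of 16 higher and 3 lower in the NOTCH1-labelled line. For all genes these shares were 24.4% and 15.2%, and 18.9% and 18.9%. CYP26B1, which degrades retinoic acid, was lower under ginkgolic acid in both lines, with log2 ratios of −3.72 and −2.16. Its values were 0.108 and 1.43 FPKM in MCF10A and 0.499 and 2.23 in the NOTCH1-labelled line, levels that olfactory receptor genes also reach. ALDH1A2 and ALDH1A1, which make it, had 2.54 and −2.03 in MCF10A and −1.63 and 2.48 in the NOTCH1-labelled line, which are opposite signs for each gene. The carriers CRABP1 and CRABP2 also differed by line. CRABP1 had 2.01 in MCF10A, at 1.04 and 0.259 FPKM. In the NOTCH1-labelled line it was listed at 0 under ginkgolic acid and at 2.11 FPKM under DMSO. Olfactory receptor genes also reach these levels of CRABP1. CRABP2 had −1.79 in MCF10A and 1.24 in the NOTCH1-labelled line.

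Genes that flank the clusters had 1 of 20 measured genes with a ratio 2-fold or more higher and 0 lower in MCF10A, and 5 of 20 higher and 0 lower in the NOTCH1-labelled line. Among all genes 24.4% and 15.2% were so in MCF10A, and 18.9% and 18.9% in the NOTCH1-labelled line. The 1 gene in MCF10A was EVX1, a homeobox gene beside HOXA13, at 1.96 and 0.245 FPKM, and its value in the NOTCH1-labelled line was listed at 0 under ginkgolic acid and at 0.364 under DMSO. ATF2, SNX10 and ATP5G1 had 1.46, 1.36 and 1.13 in the NOTCH1-labelled line and 0.59, 0.53 and −0.26 in MCF10A, and SKAP1, under 1 FPKM in MCF10A, had 1.61 in the NOTCH1-labelled line. The median log2 ratios of the flanking genes were 0.05 and 0.52. ParaHox and other HOX-like genes had 3 of 11 measured in MCF10A, with 2 2-fold or more higher (EVX1 and GBX1), and 1 of 11 in the NOTCH1-labelled line, with no ratio. Of 4 measured genes reported as HOX targets or partners, 1 was 2-fold or more higher in each line, VEGFA, with log2 ratios of 2.30 and 2.78.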

How the data were processed

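The submitters' processing notes name Cuffdiff 2.1.1 and Cufflinks 2.1.1, TopHat2 2.0.8b with Bowtie2 2.1.0, and the build GRCh37 (hg19). Per the file headers the deposited values are FPKM, 1 per gene row and group. For the annotation, filters, strand setting and how a group's 2 samples gave 1 value, nothing is stated in the labels, and the labels do not say whether samples came from separate cultures. Gene rows were rows of 1 symbol listed once, on the main chromosomes, without small RNAs and rows under 200 bases. Of 70227 and 59662 rows, 15977 and 5455 named no gene and 1575 and 1570 joined several. Ratios are log2 values with ginkgolic acid in the numerator and no pseudocount, for genes with at least 1 FPKM in either group, and values listed at 0 have no ratio. At least 2-fold is a rule of size, not a test. Gene types, overlaps and transcripts came from GENCODE release 29, and promoter windows from RefSeq (GRCh38.p14), matched by symbol. Named were HOX genes at 1 FPKM or more, the rest by range or value, and per other list up to 4 genes with the largest absolute ratio beyond 2-fold, with MLL, EZH2 and MEIS1 in any case. Some genes and sequences that the rule covers are not reported here. Other named genes were picked with their values known. The members and lists were chosen with earlier results of these data known. Other settings were no minimum, minimums of 5 FPKM or of 1 FPKM in both groups, a pseudocount of 1 FPKM, means, joined rows, removal of the median ratio of genes at 1 FPKM in both groups and, added after seeing the data, the olfactory receptor limit. The counting was tested on simulated data. Python 3.11.15, numpy 2.4.6, pandas 2.3.3 and matplotlib 3.10.9 were used.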

Additional observations from a re-analysis of the deposited data

Results flagged for a closer look

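A row without a gene name, 2667 bases before the HOXA cluster (chromosome 7, 27129862 to 27129944, hg19), was at 982 FPKM under ginkgolic acid in MCF10A and listed at 0 under DMSO. It was noted because it is a signal outside the gene rows compared above that exceeds its control value. The row spans 83 bases, and the number of fragments behind it is unknown. Another unnamed row of 91 bases, 2279 bases before the HOXD cluster, was at 684 FPKM under DMSO in the NOTCH1-labelled line and listed at 0 under ginkgolic acid.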

How the results depend on the processing

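No paired analysis was possible because the tables hold 1 value per group, and for the same reason no replicate could be left out. Without a minimum FPKM, HOX genes 2-fold or more higher numbered 6 in MCF10A, those 2-fold or more lower numbered 2 in MCF10A and 10 in the NOTCH1-labelled line, and the medians of the log2 ratios were 0.56 and −1.16, with −1.62 for the difference between the lines. With a minimum of 5 FPKM, 2 HOX genes were measured in each line, 0 were lower in MCF10A, 1 was higher and 1 lower in the NOTCH1-labelled line, and the medians were 1.97 and 0.058. With 1 FPKM required in both groups, 0 were lower in MCF10A and 1 in the NOTCH1-labelled line, and the medians were 1.16 and 0.54. With a pseudocount of 1 FPKM, 0 were lower in MCF10A and 1 higher in the NOTCH1-labelled line, and the medians were 0.36 and 0.11, with −0.067 for the difference. Under each of the last 3 settings the count of higher genes in MCF10A was 2, where the report has 3. With the median of the genes at 1 FPKM in both groups removed, 1 was higher in the NOTCH1-labelled line, and the medians were 0.77 and 0.065, with −0.39 for the difference. Means in place of medians were 0.60 and −0.35. With genes above the olfactory receptor limit only, a setting added after seeing the data, the medians were 0.73 and 0.12 and the counts of higher and lower genes were as in the report. The joined rows moved the HOXB median in MCF10A from 0.91 to 0.09. Fewer genes enter under a stricter minimum, and the other causes were not tested. The unknown depth limits all values near 1 FPKM.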
